A study of Arabidopsis thaliana with 9 samples.

Results

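Clusters led by 23-nt RNAs are stretches of the *Arabidopsis thaliana* genome that give rise to small RNAs (sRNAs) and whose most abundant RNA, called the lead RNA here, is exactly 23 nt long. They were chosen by the length of the lead RNA in the deposited table, a measured value, among clusters placed on chromosomes 1 to 5, and 3731 of 28897 such clusters (12.9%) qualified. On either side of that length stood 1902 clusters led by 22-nt RNAs and 14533 led by 24-nt RNAs. A further 13 clusters of the organelle genomes and 408 sequences without a position also have 23 nt and are not members. The table names a single lead RNA per cluster, so the lengths of the other reads in a cluster were not analysed here, and the choice of members used no comparison between conditions.

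The libraries are sRNA-seq of shoots of wild type Col-0 plants, 3 biological replicates per condition and 9 in all, made with a kit that ligates adapters to both RNA ends. All plants were first grown for 14 days on medium with iron. The -Fe plants then spent 3 days and a further 24 hours on medium without iron. The Fe resupply plants spent the 3 days without iron and the last 24 hours with it, and the +Fe plants had iron throughout with the same transfers. Each p-value below sets a difference between conditions against the spread between such libraries. In the main fit that spread is pooled over the 3 conditions for each cluster and drawn toward a trend over all of them. The values are the log2 normalized abundances that the authors deposited, and the depth of the libraries is unknown. The transformation is not named, and if it is a regularized logarithm the changes of clusters with low values are understated. Members ranged between 1.77 and 13.83 on this scale. Across members, Pearson's r between libraries was 0.994 to 0.996 within a condition and 0.993 to 0.995 between conditions.

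Plants make most of their small interfering RNAs (siRNAs) in RNA-directed DNA methylation. RNA polymerase IV and RDR2 make short double-stranded RNA, DCL3 cuts it into siRNAs of mainly 24 nt, and AGO4, which favours RNAs with adenine at the 5′ end, carries them to matching DNA. DCL3 products from the opposite strand can be 23 nt long, and RDR2 can add a base that the template does not hold to the 3′ end of its strand. This is background, and where the members come from was not tested.

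The lead RNAs below show the 3′ ends that recur among the members, with the last 2 bases in capitals. The first leads 5 clusters on 3 chromosomes, among them Cluster_7957, which overlaps AT2G18320, and the next leads 5, among them Cluster_25645. The RNA of Cluster_24191 leads 3 clusters, and the RNA of Cluster_10190 is the start of a serine tRNA and ends in another way.
Cluster_7957: uaggaucuuaagugguauauaUA
Cluster_25645: cgcaaccggaucuuaaaggcgUA
Cluster_24191: aaaggaagaucuugugaaacaUA
Cluster_10190: guggacgugccggagugguuaUC

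The 3′ end of the members was rich in UA. At base 22, 57.2% of the 3731 lead RNAs had uracil, against 33.2% uracil over all bases of these RNAs. At base 23, 53.8% had adenine, against 28.9% over all bases, and at base 21 the share with adenine was 46.4%. Both last bases were UA in 1343 members (36.0%), against 3.01% of clusters led by 24-nt RNAs, 2.89% of those led by 22-nt RNAs and 3.57% of those led by 21-nt RNAs. The shares at the neighbouring lengths were all under 4%.

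The 5′ end was close to that of the 22-nt leads. Adenine was the first base of 40.3% of members, against 74.2% of clusters led by 24-nt RNAs and 39.1% of those led by 22-nt RNAs. In the genome, the base just before the RNA was uracil (thymine in the DNA) for 37.2% of members and 46.5% of 24-nt leads, counted over RNAs with 1 exact match. That base and a first adenine came together in 14.2% of members and 34.6% of 24-nt leads. The genome base after the RNA was adenine for 56.2% of members, 58.8% of 22-nt leads and 32.2% of 24-nt leads. Base shares are counts over clusters, which can share an RNA, and are given without a test.

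**Figure D1:**
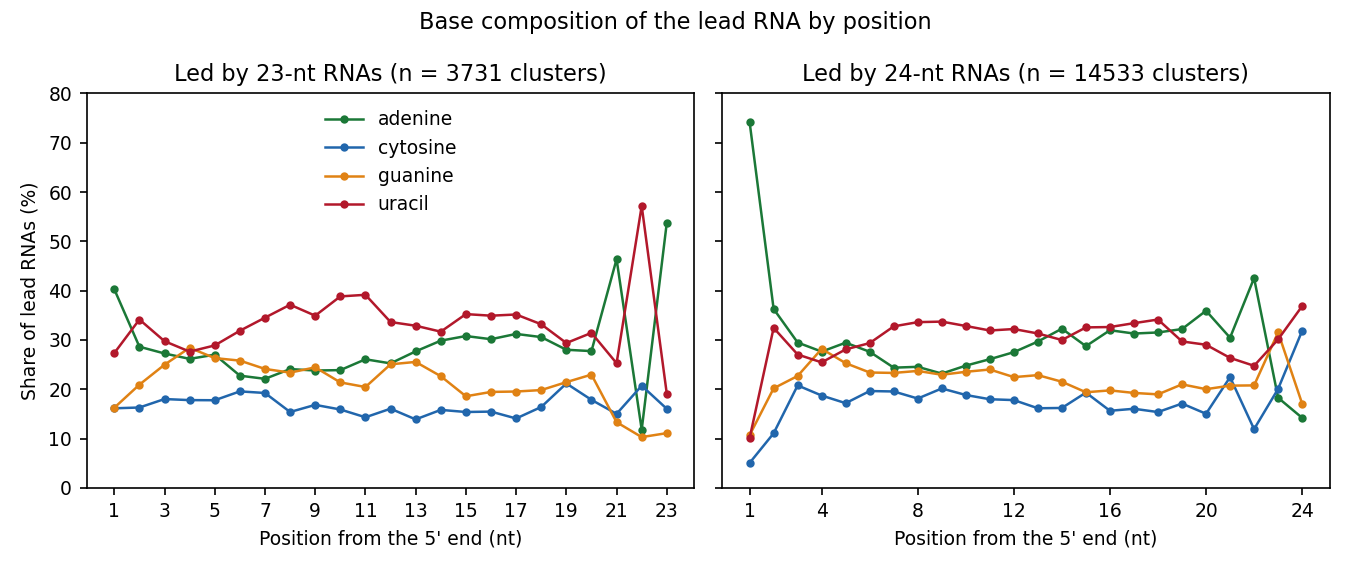
Share of each base (%) at each position from the 5′ end, for the lead RNAs of 3731 clusters led by 23-nt RNAs (left) and 14533 led by 24-nt RNAs (right). In the left panel uracil reaches 57.2% at base 22 and adenine 53.8% at base 23, and in the right panel adenine reaches 74.2% at base 1.

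Many members ended in a base that the genome does not have. The lead RNA was found without mismatch inside its own cluster for 3226 members (86.5%), against 99.0% of clusters led by 24-nt RNAs and 97.1% of those led by 22-nt RNAs. Of the 505 members with no exact match, 459 (90.9%) differed from the genome at the last base alone. For 24-nt leads, 77 of 144 without an exact match did so. No position from 1 to 22 of the members held more than 5 of the other single mismatches.

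The mismatch was mostly a single kind. Written with the genome base first, the position from the 5′ end of the RNA, and the base of the RNA last, 386 of the 459 were G23A (84.1%), 43 were U23A, 15 were A23G, 5 were C23A and 5 were U23C. The RNAs below are the most abundant leads of the first and the second kind, with the base that differs in capitals. Cluster_21050 lies at chr5:19951950-19952982 and Cluster_14434 at chr3:16462789-16463097, neither over an annotated gene. Cluster_8575, at chr2:10601615-10609232, overlaps AT2G24920 and AT2G24930. These positions, here and below, are those of the deposited table, and their build is TAIR10.
Cluster_21050, G23A: ucuuguggaguggaaccucuuuA
Cluster_8575, G23A: acguggauuaugguaaugacauA
Cluster_14434, U23A: aggaucuaucuuguguaacuucA

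Where the genome had guanine at the last base, the members fell into nearly equal groups. Of 777 members with 1 site and guanine there, 384 ended in adenine (49.4%) and 392 in the guanine of the genome (50.5%). The same count gave 20 of 2488 (0.804%) for 24-nt leads and 9 of 318 (2.83%) for 22-nt leads. Where the genome had uracil, 43 of 747 members (5.76%) ended in adenine, and where it had cytosine, 5 of 588 (0.850%). How the last base came to differ was not tested.

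**Figure D2:**
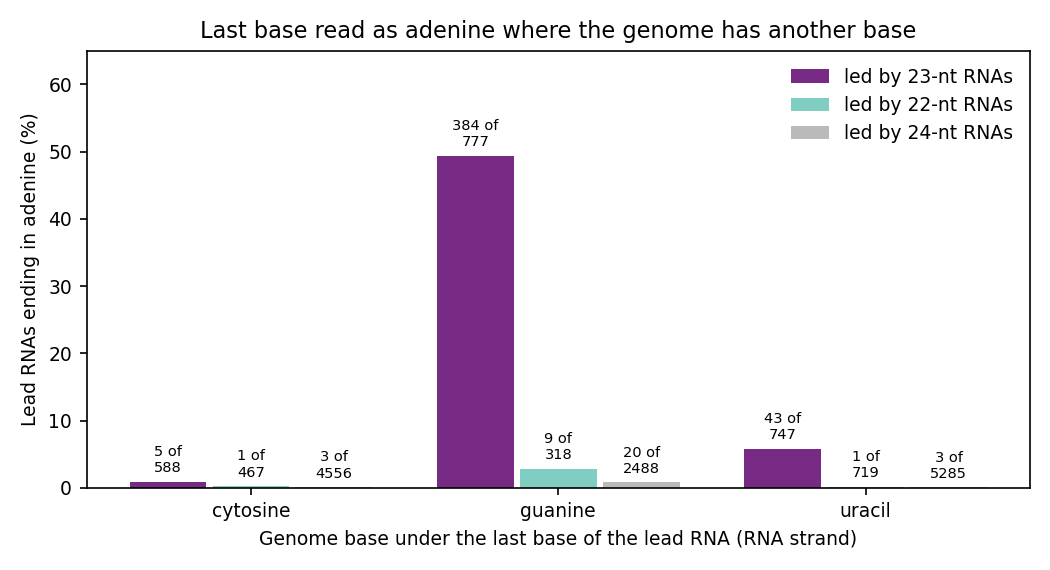
Share of lead RNAs (%) that end in adenine where the genome, on the strand of the RNA, has cytosine, guanine or uracil under the last base. Bars stand for clusters led by 23-nt, 22-nt and 24-nt RNAs, with counts above them, and the bar of the 23-nt leads over guanine reaches 49.4%.

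The members whose last base differs from the genome shared the UA end. Of the 459, 325 (70.8%) ended in UA, against 995 of 3226 (30.8%) of the members with an exact match. Their median value, 4.39 on the log2 scale, lay above the 3.94 of the exact matches. Of the 459, 22.9% overlapped a protein-coding gene, against 35.4% of the exact matches. The UA end is thus common in both groups. Its higher share where the last base differs partly restates the kind of mismatch, since 434 of the 459 (94.6%) end in adenine. Uracil at base 22, which the mismatch does not set, was in 342 of the 459 (74.5%), against 57.2% of all members.

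A few members could be set against a 24-nt lead RNA of another cluster. Over at least 18 nt, 39 of the 3451 distinct 23-nt leads were complementary to a 24-nt lead, in 51 pairs. In 17 of the 51 pairs (33.3%), base 22 of the 23-nt RNA faced base 1 of the 24-nt RNA, so that only the last base of the 23-nt RNA reached past the 5′ end of its partner. The next most frequent register held 8 pairs. The 17 pairs held 15 distinct 23-nt RNAs. In 14 of the 17 pairs the 24-nt RNA began with adenine, against 74.2% of clusters led by 24-nt RNAs. Uracil at base 22 of the 23-nt RNA in these 14 pairs follows from the pairing and adds nothing to that count. The last base of the 23-nt RNA was not compared, and in 16 of the 17 pairs it was adenine, against 53.8% of all members. The pairs below have this register. Capitals mark bases 22 and 23 of the 23-nt RNA and the base 1 that faces base 22.
Cluster_17464, 23 nt, G23A: aacgguaucuagcgguuucuaUA
Cluster_3936, 24 nt: Auagaaaccgcuagauaccguuuu
Cluster_18354, 23 nt: ucgaccccaaauuuugaccuuUA
Cluster_18968, 24 nt: Aaaggucaaaauuuggggucgaca
In each pair the clusters lie apart in the genome (chr5:8896991-8897816 and chr4:12829351-12830039 for the first). On the same strand, 148 of the 3451 distinct leads overlapped a 24-nt lead by 18 nt or more, in 193 pairs. Base 1 of the 24-nt RNA lay just before the 23-nt RNA in 38 of these (19.7%) and at its first base in 24 (12.4%).

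**Figure D3:**
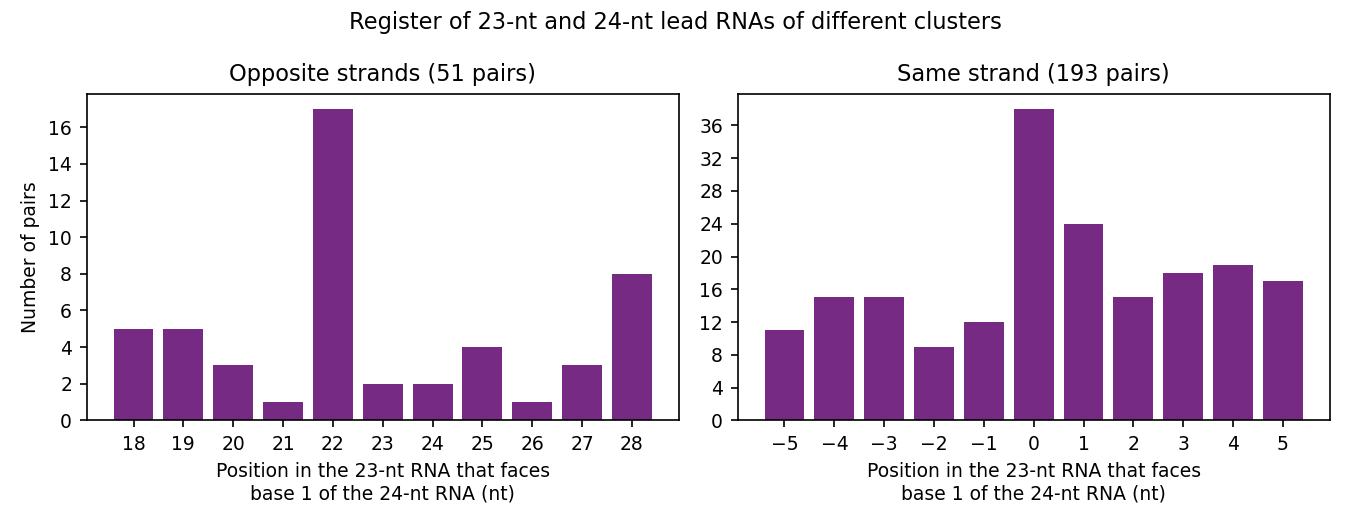
Number of pairs of a 23-nt lead RNA and a 24-nt lead RNA of another cluster (y) by the position in the 23-nt RNA that meets base 1 of the 24-nt RNA (x, in nt), for complementary pairs (left, 51 pairs) and same-strand pairs (right, 193 pairs, where 0 is the base before the 23-nt RNA). On the left 17 pairs stand at position 22 and no other position holds more than 8, and on the right position 0 holds 38.

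The word GAUCUU, chosen after the sequences were seen, recurred in the members and stands in the 3 RNAs ending in UA shown first. It was in 198 of 3451 distinct leads (5.74%), against 2.78% of 24-nt leads, 2.05% of 22-nt leads and 1.91% of 21-nt leads. Among the 100 leads of highest value it was in 12 for members, against 3 for 24-nt leads, 1 for 22-nt leads and 4 for 21-nt leads. Only the strand of the RNA was searched, and since the word was chosen after the sequences were seen, these counts are no test of it. Of the 3 RNAs shown, that of Cluster_24191 was not chosen by rank. A shared RNA with a higher top mean (8.50 against 8.20), which ends in UA and leads 5 members, lacks the word.

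The share of members near the centromeres depended on the distance used. Of the 3731, 2313 (62.0%) were within 5 Mb of the centromere gap of their chromosome, against 72.3% of clusters led by 24-nt RNAs and 48.0% of those led by 22-nt RNAs. Within 3 Mb these shares were 45.3%, 56.2% and 33.6%. The share of the chromosomes that lies within these distances was not counted. A protein-coding gene was overlapped by 33.9% of members, 19.7% of 24-nt led clusters and 55.3% of 22-nt led clusters. A pseudogene was overlapped by 17.6% of members, 28.5% of 24-nt led clusters and 15.5% of 22-nt led clusters. No annotated gene was overlapped by 46.7% of members, against 50.5% of 24-nt and 26.6% of 22-nt led clusters. In position and gene overlap the members thus stood between these classes. Transposable elements were not analysed here, since the annotation used has no class for them.

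The members were also counted by their 3′ end. Of the 1343 with a UA end, 19.5% overlapped a protein-coding gene, against 42.0% of the 2388 others. The median value was 4.37 for the members with a UA end and 3.76 for the others. The UA end was found in 46.4% of members that overlap no annotated gene, in 37.7% of those over pseudogenes and in 20.7% of those over protein-coding genes. It was found in 40.4% of members within 5 Mb of the centromere gap and in 28.8% of those farther away. In 4 groups of nearly equal size by level, lowest first, the share was 26.9%, 33.2%, 42.2% and 41.7%. The median member was 533 nt wide, against 613 nt for 24-nt led clusters, and had a value of 3.98, against 4.36. Its nearest neighbour was led by a 24-nt RNA in 54.8% of cases. That share was 64.6% for 24-nt led clusters and 43.1% for 22-nt led clusters. Of all placed clusters, 50.3% were led by a 24-nt RNA, so the members' share lay near this background.

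The most abundant member was a tRNA fragment. Of 21 members whose RNA lay in a tRNA gene, all were on the strand of the tRNA and 19 began at its first base. Of the 21, 11 were in genes for serine tRNA, which carries serine to the ribosome. Cluster_10190, at chr3:586062-586173 over the serine tRNA gene AT3G02715, had 13.75, 13.68 and 13.63 in the -Fe libraries, 13.59, 13.55 and 13.83 in the Fe resupply libraries and 13.77, 13.59 and 13.58 in the +Fe libraries. The conditions overlapped in this member. Its RNA, printed above, leads 8 members on 3 chromosomes, whose mean values ran between 3.28 and 13.66, and reads of such copies cannot be told apart by sequence. None of the 22 clusters over a tRNA gene had an RNA ending in UA. Cluster_23249, over the serine tRNA gene AT1G17570, averaged 9.89.

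The other members of high value were of several kinds. Cluster_3450 (chr4:10112269-10112487), over no annotated gene, averaged 13.17, and its 9 libraries ran between 12.91 and 13.35. Cluster_5712, over the small nucleolar RNA gene AT2G04965 on chromosome 2, whose products guide the modification of other RNAs, averaged 10.53. Cluster_7957 averaged 10.46, and Cluster_19972, in the coding sequence of RBCS2B, a small subunit of Rubisco, averaged 10.27. None of these passed the test in any comparison (limma, smallest adjusted p = 0.143, for Cluster_5712 in Fe resupply against +Fe). The 6 members of highest value took between 12.5% and 15.0% of the members' back-transformed sum in each library.

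As a class, the members held a small and steady share of the libraries. They made up 1.99%, 1.97% and 1.93% of the back-transformed total in the -Fe libraries, 1.95%, 2.28% and 2.14% in the Fe resupply libraries and 2.06%, 2.06% and 2.02% in the +Fe libraries. Each -Fe library lay below each +Fe library, by little, and the Fe resupply libraries spanned both. Clusters led by 24-nt RNAs took 8.33% to 8.62% in -Fe, 8.52% to 10.53% in Fe resupply and 8.98% to 9.15% in +Fe. For each 100 units of 24-nt led clusters, the members held 22.8 to 23.2 in -Fe, 21.7 to 22.9 in Fe resupply and 22.1 to 22.9 in +Fe. A share of the total falls when other features rise, and that part was not tested.

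The first comparison asked which clusters responded to iron deficiency. A cluster passed when its adjusted p was under 0.1 (limma, Benjamini-Hochberg over 33159 features) and its log2 fold change was 0.5 or more in either direction. Of the 3731 members, 13 passed in -Fe against +Fe (0.348%), beside 0.504% of all features tested. Of these, 7 were higher in -Fe, beside 0.268% of all features, and 6 were lower, beside 0.235%. This split rested on single libraries, with 2 higher and 7 lower without +Fe replicate 1 and 1 higher and 8 lower without +Fe replicate 2, and it was 0 higher and 4 lower with 8 added before the logarithm. The split over all features, 89 higher and 78 lower, moved toward lower calls in these settings as well. It was 100 and 136 without +Fe replicate 1, 63 and 86 without +Fe replicate 2, and 38 and 45 with 8 added. The members' share lay near the background, and the 13 are described as single loci. The median change of all members was -0.0068 on the log2 scale and 47.3% were above 0, while 24-nt led clusters had a median of -0.02 with 42.0% above 0. Leaving out single libraries moved the members' median over a range of -0.0142 (without +Fe replicate 3) to -0.0021 (without +Fe replicate 2), with -0.0103 without -Fe replicate 1 and -0.0025 without -Fe replicate 2. The 3 comparisons share libraries, so their results are not independent of each other.

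**Figure D4:**
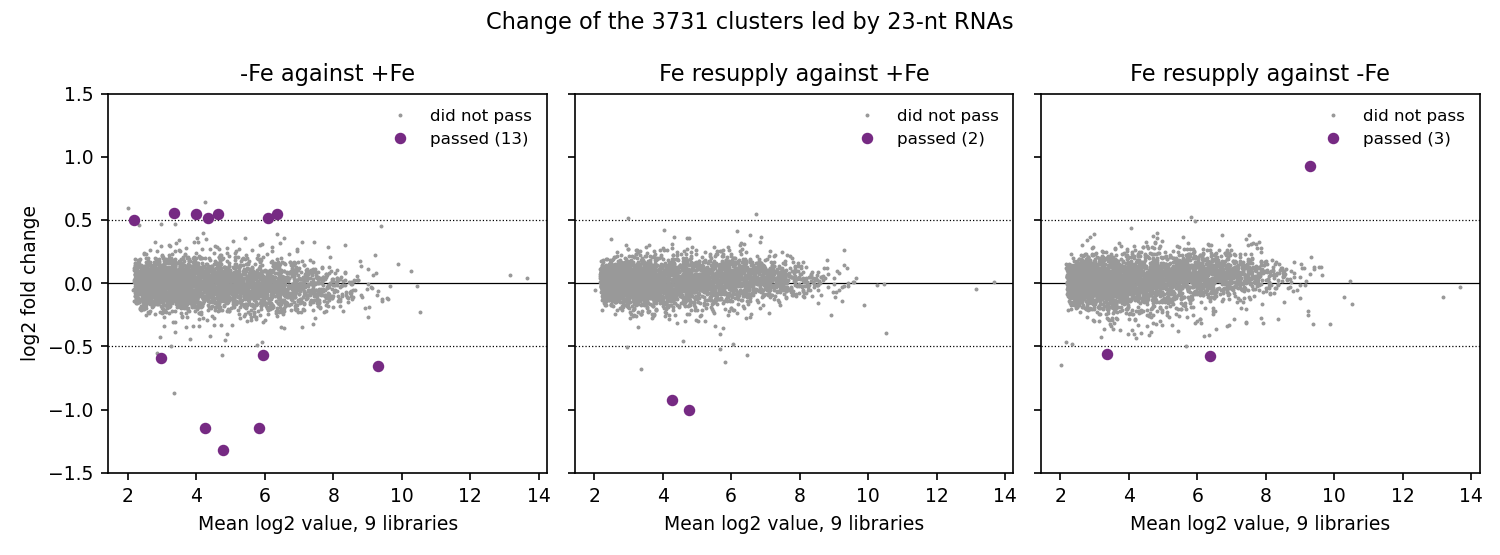
log2 fold change (y) of each of the 3731 members against its mean log2 value over 9 libraries (x). The left panel sets -Fe against +Fe, the middle panel Fe resupply against +Fe, and the right panel Fe resupply against -Fe. Purple points passed the test (13 on the left, 2 in the middle, 3 on the right) and grey points did not, and dotted lines stand at 0.5 and -0.5.

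The RNAs below lead the members whose fall in -Fe kept its call in each alternative setting run on them, the last being also higher in Fe resupply than in -Fe. Cluster_3948 and Cluster_8659 had 15 such settings, since their means lie under the filter at 50, and Cluster_28465 had 16. Capitals mark the last 2 bases.
Cluster_3948, FSD1: aaauuucugaacaauuugacuUC
Cluster_8659, G23A: gaacggcucugcauuuagacaUA
Cluster_28465, AT1G70475: agugcaacuuguagaagccuaCA

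Cluster_3948 (chr4:12884411-12884861) is in FSD1, which encodes an iron superoxide dismutase of the chloroplast, and its RNA lies in a UTR in sense orientation. Its values were 3.75, 3.87 and 3.81 in the -Fe libraries, 4.10, 4.08 and 3.93 in the Fe resupply libraries and 4.89, 4.89 and 5.10 in the +Fe libraries. All 6 libraries of plants that had been without iron lay below all 3 +Fe libraries. The change was -1.15 ± 0.095 (SE) in -Fe against +Fe (limma, adjusted p = 6.96e-07) and -0.92 ± 0.095 in Fe resupply against +Fe (limma, adjusted p = 1.26e-05). In Fe resupply against -Fe it was 0.23 ± 0.095 and did not pass (limma, adjusted p = 0.375).

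Cluster_8659 (chr2:11010799-11011120) lies over no annotated gene, and its RNA differs from the genome by G23A. It had 4.33, 3.89 and 4.48 in the -Fe libraries, 4.40, 4.18 and 5.06 in the Fe resupply libraries and 5.47, 5.32 and 5.86 in the +Fe libraries. Its -Fe and Fe resupply libraries overlapped each other and lay below all +Fe libraries. The change was -1.32 ± 0.18 (SE) in -Fe against +Fe (limma, adjusted p = 6.26e-04) and -1.001 ± 0.18 in Fe resupply against +Fe (limma, adjusted p = 0.0233). The second no longer passed without +Fe replicate 3 (-0.85, limma, adjusted p = 0.224).

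Cluster_28465 (chr1:26561122-26561551) overlaps AT1G70475, a protein-coding gene, though its RNA lies outside the gene's transcribed part. It had 8.71, 8.88 and 8.72 in the -Fe libraries, 9.79, 9.54 and 9.75 in the Fe resupply libraries and 9.68, 9.35 and 9.26 in the +Fe libraries. The -Fe libraries lay below all others. The change was -0.66 ± 0.11 (SE) in -Fe against +Fe (limma, adjusted p = 0.00467) and 0.92 ± 0.11 in Fe resupply against -Fe (limma, adjusted p = 3.22e-04), and each kept its call in all 16 alternative settings. It was the only member called higher in Fe resupply against -Fe.

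Of the other members lower in -Fe, Cluster_26890 (chr1:18906175-18906642, no annotated gene) had 5.08, 5.61 and 5.10 in the -Fe libraries, 5.23, 6.50 and 5.62 in the Fe resupply libraries and 5.97, 6.43 and 6.82 in the +Fe libraries. The Fe resupply libraries were spread over the range of both. Its change in -Fe against +Fe was -1.14 ± 0.23 (SE; limma, adjusted p = 0.0238), and it lost its call without -Fe replicate 1 (adjusted p = 0.166), without -Fe replicate 3 (0.154) or without +Fe replicate 3 (0.191). Cluster_24704, antisense to a UTR of CYP94D1, a cytochrome P450 gene, changed by -0.59 ± 0.13 (SE; limma, adjusted p = 0.0488). Its -Fe libraries were at 2.78, 2.70 and 2.72, below the 3.79, 3.16 and 3.02 of the +Fe libraries. Without +Fe replicate 1 the change was -0.36 (adjusted p = 0.105), and without each -Fe library in turn it did not pass either (adjusted p = 0.151, 0.148 and 0.187). Cluster_11775 (chr3:9719363-9719421, no annotated gene) changed by -0.57 ± 0.14 (SE; limma, adjusted p = 0.0780) and lost its call in 9 of 16 alternatives, with a change between -0.70 and -0.41. These include leaving out each -Fe library, +Fe replicate 1 or +Fe replicate 2 (adjusted p between 0.159 and 0.308).

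Of the 7 members that rose in -Fe, 6 overlapped a protein-coding gene, beside 33.9% of all members. The set of 7 rested on single libraries, as given above. The RNAs of the members in ORG1 and BHLH100 are given below for their place in iron-responsive genes, with the last 2 bases in capitals.
Cluster_21346, ORG1: aguguuucguucuguuaggaaCU
Cluster_9702, BHLH100: aacgugagcgucgcaagaagaUC

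Cluster_21346 (chr5:21689116-21689507) lies in the coding sequence of ORG1, whose transcript is known to respond to iron, in sense orientation. It had 3.56, 3.93 and 3.67 in the -Fe libraries, 3.11, 3.09 and 3.29 in the Fe resupply libraries and 3.16, 3.04 and 3.29 in the +Fe libraries. All -Fe libraries were above all others, and the Fe resupply and +Fe libraries overlapped. It changed by 0.56 ± 0.10 (SE) in -Fe against +Fe (limma, adjusted p = 0.0120) and by -0.56 ± 0.10 in Fe resupply against -Fe (limma, adjusted p = 0.0144). Without -Fe replicate 2 these were 0.45 (adjusted p = 0.0679) and -0.45 (adjusted p = 0.0850), under the fold limit, and without +Fe replicate 2 the first was 0.4964 (adjusted p = 0.0806).

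Cluster_9702 (chr2:17199039-17199407) lies in the coding sequence of BHLH100, a transcription factor gene switched on by iron deficiency. It had 2.25, 2.96 and 2.28 in the -Fe libraries, 2.01, 2.03 and 2.05 in the Fe resupply libraries and 1.99, 1.97 and 2.02 in the +Fe libraries, near the lowest values of any member. The -Fe libraries lay above all others, with -Fe replicate 2 far above the rest. The change was 0.50 ± 0.12 (SE; limma, adjusted p = 0.0704), and without -Fe replicate 2 it was 0.27 (limma, adjusted p = 0.112). It lost its call in 8 of 14 alternatives, also without each +Fe library in turn (adjusted p = 0.118, 0.194 and 0.211).

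Cluster_10389, in the coding sequence of AT3G06750, had 4.94, 4.95 and 4.96 in the -Fe libraries, 4.55, 4.44 and 4.71 in the Fe resupply libraries and 4.31, 4.28 and 4.62 in the +Fe libraries. The -Fe libraries lay close together and above all others. It changed by 0.55 ± 0.10 (SE; limma, adjusted p = 0.0154), and by 0.49, under the limit, without +Fe replicate 2. Cluster_437, over GSTF2, a glutathione S-transferase gene, and TOC159, a receptor for protein import into chloroplasts, changed by 0.52 ± 0.09 (SE; limma, adjusted p = 0.00817). Its RNA is sense to the coding sequence of GSTF2 and antisense to a UTR of TOC159, and without -Fe replicate 3, +Fe replicate 1 or +Fe replicate 2 the change lay just under the limit (0.48, 0.49 and 0.4993).

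The other members higher in -Fe are given more briefly. Cluster_21224, in the coding sequence of EXL3, changed by 0.55 ± 0.13 (SE; limma, adjusted p = 0.0599) and lost its call in 7 of 16 alternatives, among them leaving out each -Fe library, +Fe replicate 1 or +Fe replicate 2. Cluster_11005, sense to AT3G16530 and antisense to AT3G16525, changed by 0.55 ± 0.13 (SE; limma, adjusted p = 0.0625) and lost it in 5 of 15, among them leaving out -Fe replicate 1 or 3 or +Fe replicate 1 or 3. Cluster_2979, over the long non-coding RNA gene AT4G06140, changed by 0.52 ± 0.13 (SE; limma, adjusted p = 0.0931) and lost it in 9 of 16, among them leaving out -Fe replicate 1 or 3 or each +Fe library. The RNA of Cluster_2979 lies outside AT4G06140. For these 3 members, leaving out single libraries gave changes between 0.37 and 0.69 and adjusted p-values up to 0.470.

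**Figure D5:**
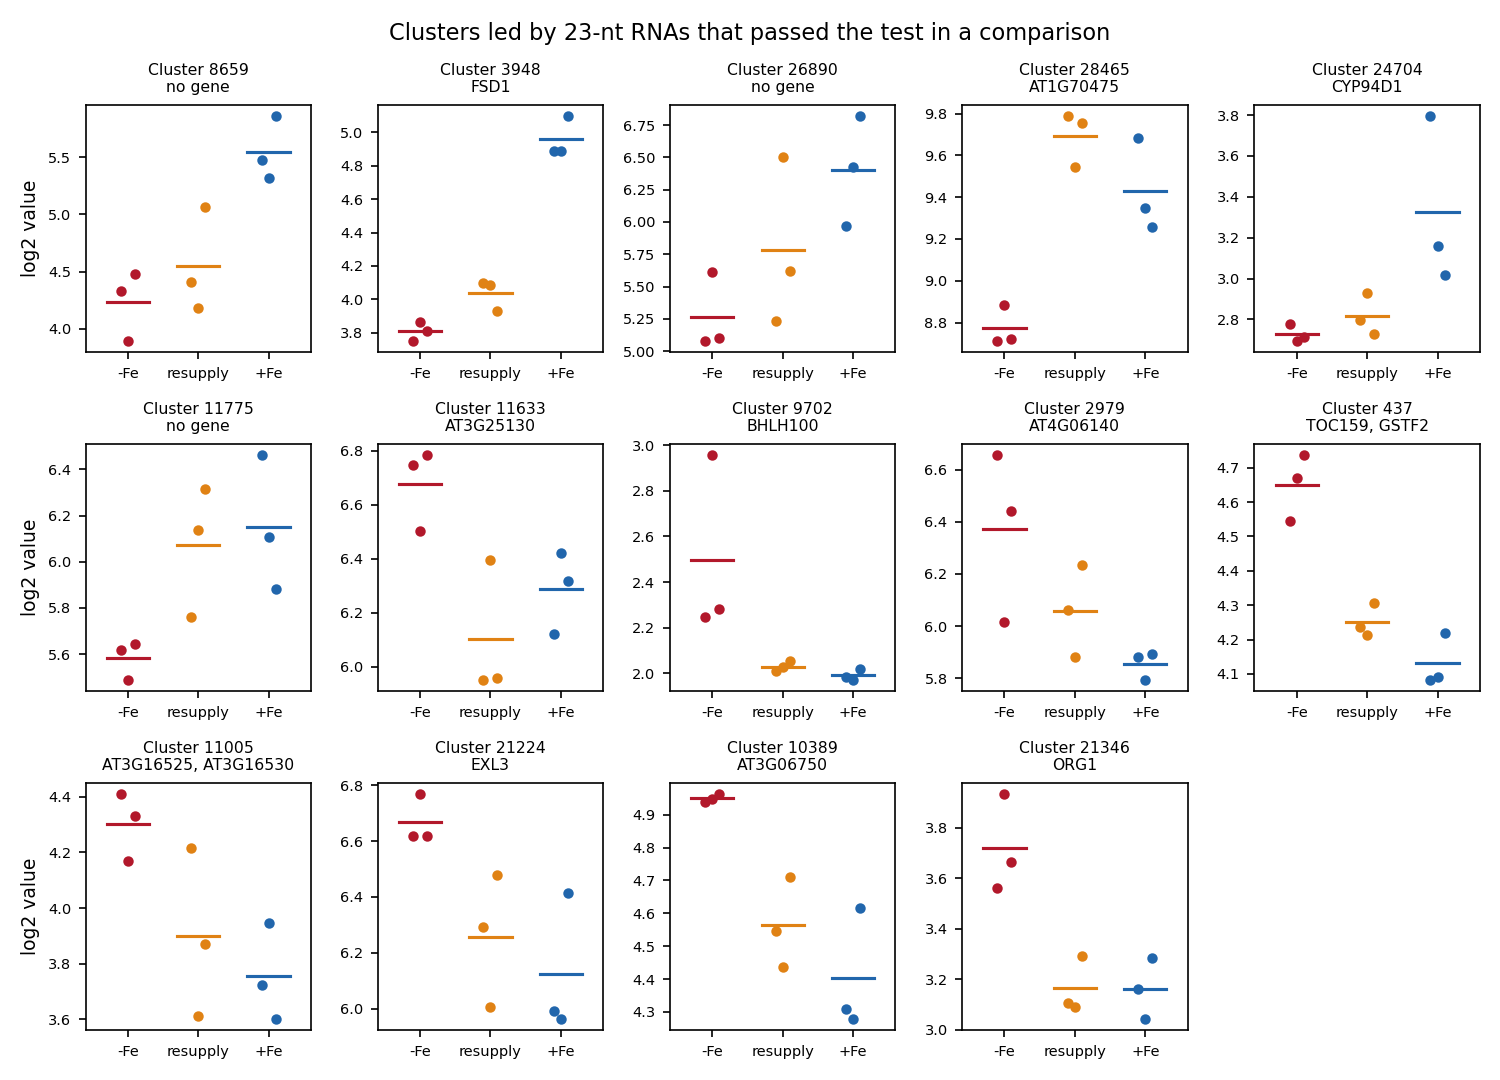
log2 value (y, its own range in each panel) of the 14 members that passed in at least 1 comparison, in the 3 -Fe, 3 Fe resupply and 3 +Fe libraries (points, with the mean as a line), ordered by their change in -Fe against +Fe. In each of the 13 called in that comparison all -Fe points lie on one side of all +Fe points, and in Cluster_11633 the same holds for -Fe against Fe resupply. Among all 3731 members, the -Fe libraries lay all above the +Fe libraries in 201 and all below them in 247. Such separation thus also occurs without a call, and it adds no support to members already chosen by p and fold change.

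Of the 13 members called in -Fe against +Fe, 9 overlapped a protein-coding gene, 3 overlapped no annotated gene, 12 had an exact match and 3 ended in UA. The 7 that rose included 1 ending in UA and the 6 that fell included 2. Of the 1265 members over protein-coding genes, 9 passed (0.711%), and of the 1742 over no annotated gene, 3 passed (0.172%), beside 0.504% of all features. The difference between these shares was not tested. The 1343 members ending in UA had a median change of -0.02, with 43.3% above 0, and the 2388 others had a median of -0.0011, with 49.5% above 0.

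In Fe resupply against +Fe, which asked what remained changed after iron was given back, 2 of the 3731 members passed (0.0536%), beside 0.127% of all features. None was higher, beside 0.0332% of all features, and 2 were lower, beside 0.0935%, namely Cluster_3948 and Cluster_8659. At an unadjusted p under 0.05 (limma) there were 180 members, 4.82% of them, and 6.63% of all features. The next members by p did not pass. Cluster_5712 had 10.42, 10.36 and 10.26 in the Fe resupply libraries and 10.83, 10.65 and 10.73 in the +Fe libraries, which did not overlap, with a change of -0.39 ± 0.09 (SE; limma, adjusted p = 0.143). Cluster_9039, over the non-coding RNA gene AT2G30115, differed by 0.41 ± 0.10 (SE; limma, adjusted p = 0.169), and Cluster_8880, in the coding sequence of CSD2, a copper/zinc superoxide dismutase of the chloroplast, by 0.35 ± 0.09 (SE; limma, adjusted p = 0.210). The RNA of Cluster_9039 lies outside AT2G30115. The median change of the members was 0.0129, with 56.2% above 0. It was 0.0070 without +Fe replicate 3, 0.0076 without Fe resupply replicate 2 and 0.0214 without Fe resupply replicate 1.

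In Fe resupply against -Fe, which asked what moved within 24 hours of iron, 3 of the 3731 members passed (0.0804%), beside 0.528% of all features. Of these, 1 was higher (Cluster_28465), beside 0.0513% of all features, and 2 were lower (Cluster_21346 and Cluster_11633), beside 0.476%. Cluster_11633, in a UTR of AT3G25130, had 5.95, 6.40 and 5.96 in the Fe resupply libraries and 6.75, 6.50 and 6.78 in the -Fe libraries, which did not overlap, though Fe resupply replicate 2 came close. It changed by -0.58 ± 0.12 (SE; limma, adjusted p = 0.0373), and lost its call without -Fe replicate 1 (adjusted p = 0.145), -Fe replicate 3 (0.189) or Fe resupply replicate 3 (0.177). Cluster_4627, in the coding sequence of AT4G36500, differed by -0.44 ± 0.10 (SE; limma, adjusted p = 0.0425), and Cluster_15105, in that of CAM9, a calmodulin-like protein, by -0.37 ± 0.08 (SE; limma, adjusted p = 0.0481), both under the fold limit. The median change of the members was 0.02, with 60.0% above 0, and 24-nt led clusters had 0.04, with 65.2% above 0.

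Few members touched the listed genes of iron homeostasis or of silencing that could be matched by name. Of 40 iron homeostasis genes listed, URI, BTSL1, BTSL2, IMA1, IMA2, IMA3 and FIT were not matched. Of 32 silencing genes listed, CLSY2, CLSY3 and CLSY4 were not matched. Unmatched names are not counted here. Of 33 iron homeostasis genes found in the annotation, 3 overlapped a member, namely FSD1, BHLH100 and BTS, a ubiquitin ligase that limits the iron deficiency response. In -Fe against +Fe 1 of these 3 was higher, beside 0.268% of all features, 1 was lower, beside 0.235%, and Cluster_11126 in BTS had a difference of 0.32 ± 0.11 (SE; limma, adjusted p = 0.367). Of 29 silencing genes found, SUVH2, which helps to recruit RNA polymerase V to methylated DNA, was the single one with a member, Cluster_9228, with a difference of 0.03 ± 0.08 (SE; limma, adjusted p = 0.966). Of 145 genes on the list of transcripts raised by iron deficiency in shoots, 12 overlapped a member, of which 3 were called higher in -Fe, beside 0.268% of all features, with a median difference of 0.22 beside a median of -0.0015 over all features. Of 83 genes on the matching list of lowered transcripts, 7 overlapped 8 members, of which 1 was called lower, beside 0.235% of all features, with a median of -0.24. These lists were drawn up on plants of the same design and are not independent of these samples. Most of their members did not pass, among them Cluster_26513 in AT1G47395 (0.46 ± 0.12, limma, adjusted p = 0.0976) and Cluster_16312 in FTRA2 (-0.42 ± 0.11, limma, adjusted p = 0.112).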

How the data were processed

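Small RNAs of shoots were sequenced in 9 libraries. The authors trimmed adapters with cutadapt, defined and counted clusters with ShortStack and compared counts with DESeq2. The table they deposited holds log2 normalized values, whose transformation is not named in the sources used here. Raw counts were not used here. Columns were given to samples by the condition and number in their headers.

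Of 33171 features, 12 with a constant value were left out. The others were fitted with limma 3.58.1 (R 4.3.3), 1 fit over all libraries, condition only, eBayes with a trend, and Benjamini-Hochberg adjustment, with limits of 0.1 and 0.5 after the study's methods. The fit was run on simulated data with shifts larger than the change of any called member, in features with a mean of at least 10. Smaller shifts and lower values were not simulated. Lead RNAs were searched in their own intervals of TAIR10.1 (RefSeq), and overlaps of at least 1 nt were counted on either strand. Sequences are those of the deposited table.

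Named members are those called, the 5 of smallest p where fewer than 5 were called, the 6 of highest mean, and those in small RNA genes, in listed genes, shared between clusters or contained in 24-nt leads, within fixed limits of number. Examples with a changed last base, pairs, the RNA of Cluster_24191 and the 6-base word were chosen after values were seen. The members and lists were chosen with earlier results of these data known. Alternatives are given at the end.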

Additional observations from a re-analysis of the deposited data

How the results depend on the processing

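The count of members called depended on the limits. For -Fe against +Fe it was 13, and it became 8 at an adjusted p under 0.05, 1 among features with a mean of at least 50, and 4 with 8 added before the logarithm. Over all features the count was 167, and in the same order it became 122, 37 (of 7332 tested) and 83. Leaving out single libraries gave 8 to 13, with 8 without -Fe replicate 1 or -Fe replicate 3. Higher calls numbered 1 to 5 and lower calls 4 to 8 in these. Over all features the same settings gave 121 to 236 calls, with 63 to 100 higher and 40 to 136 lower. For Fe resupply against +Fe (2) it became 0 at a mean of at least 50 (fewer features tested) and 1 among members with an exact match. Leaving out single libraries gave 2 to 5, with 4 without +Fe replicate 2 and 5 without Fe resupply replicate 2. Over all features (42) it became 13 at a mean of at least 50, and 26 to 122 without single libraries. For Fe resupply against -Fe (3) it became 13 with no fold limit. Leaving out single libraries gave 2 to 7, with 6 without -Fe replicate 3, 7 without Fe resupply replicate 1 and 5 without Fe resupply replicate 2. Over all features (175) it became 371 with no fold limit, and 97 to 375 without single libraries. Apart from the exact matches, the cause was not tested. Deviations of same-numbered libraries had correlations between -0.06 and 0.10, beside -0.12 to 0.16 for libraries of other numbers. With the replicate number as a block 15, 3 and 3 members were called. Over all features the block gave 227, 75 and 212 calls, beside 167, 42 and 175 without it. Whether the numbers pair the libraries cannot be told from these values.

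At a mean of at least 50 the members' median change was -0.0262 for -Fe against +Fe, and 0.0291 when Fe resupply was set against +Fe. For Fe resupply against -Fe it was 0.0654, and centring on library medians gave 0.0417. The UA share was 39.8% at a mean of at least 10, 41.5% at 50 and 30.8% among exact matches. Near the centromere gap lay 60.1% at a mean of at least 50, and 45.3% within 3 Mb. Overlap with protein-coding genes was 31.5% at a mean of at least 10, 28.5% at 50 and 28.9% where at least 50% of the cluster's width had to lie in the gene. Of placed clusters alone, the members made up 2.64% in -Fe, 2.85% in Fe resupply and 2.75% in +Fe. Of 275 alternative values for the 18 calls, 211 kept the call, 64 lost it and 0 changed sign. With the depth unknown, no detection limit could be given.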
